A study of Mus musculus with 9 samples.

Results

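Myosin and troponin chains are the motor and calcium-switch proteins of muscle, together with the myosins that every cell uses to pull on its actin skeleton. Their transcripts were followed in bone of aged and young mice by taking every gene whose symbol names a numbered myosin heavy chain (Myh), a numbered myosin light chain (Myl), the fast regulatory light chain Mylpf, or a troponin C, I or T (Tnnc, Tnni, Tnnt). This rule found 34 of the 56980 genes in the deposited table; 32 of them passed the filter on low counts among 16576 genes tested, and 29 had a mean of at least 1 CPM (counts scaled to a common library size). The genes were chosen by their names, but as a set they were selected on the aged and young counts of these same libraries, so every aged-to-young value below is a description. The adjusted p-values beside them are a record of the fit across all genes, and support nothing on their own.

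The aged group held 5 libraries from mice of 20 months and the young group held 4 libraries from mice of 3 months, all labelled wild type and, in the study's design text, female C57BL/6. The RNA was total RNA of trabecular bone, the spongy bone inside the ends of long bones and vertebrae, homogenized whole, while the tissue field of the labels reads bone marrow. Labels call each library a biological replicate, and neither group received an agent. The study set out to find genes that change with age in relation to the sensory nerves of bone.

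A myosin molecule pairs heavy chains, which burn ATP and walk on actin, with essential and regulatory light chains that stiffen and tune the lever arm. In the thin filament of striated muscle, troponin C binds calcium, troponin I blocks the myosin sites until it does, and troponin T ties the complex to tropomyosin. Fast, slow, embryonic, cardiac, smooth muscle and non-muscle cells each use their own chains, and in marrow the non-muscle heavy chain Myh9 is known for its work in platelets and their parent megakaryocytes.

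Library totals lay between 19804883 and 23548594 estimated counts. Aged 3, aged 4 and young 4 stood apart: ribosomal protein genes took 5.63% to 6.54% of their counts, against 2.86% to 3.08% in the other 6 libraries. The 5 libraries of aged 5 and young 1 to 4 went against the stated female sex, with 1 to 9 counts of Xist, which the inactive X chromosome transcribes, and 888 to 1721 counts of the Y-linked gene Ddx3y. Aged 1 to 4 had 7909 to 21724 counts of Xist and 0 of Ddx3y, so in 4 of the 5 aged libraries age and these transcripts cannot be told apart, and aged 5 is the only aged library on the side of the young ones. Transcripts of marrow and bone cells were present: hemoglobin genes took 0.697% to 16.1% of the counts in aged bone and 6.98% to 21.8% in young bone, and summed osteoblast genes ran over 741 to 2765 CPM in aged bone and 2499.9 to 6485 CPM in young bone. In whole tissue, fewer cells of a type and less RNA per cell cannot be told apart.

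Per length, in TPM, which allows levels of different genes to be compared, the light chain Myl6 of non-muscle and smooth muscle cells stood first, with 1660.0 ± 644 TPM in aged bone and 1328 ± 125 TPM in young bone (SD, n = 5 and 4). The fast troponins Tnnc2, Tnnt3 and Tnni2 came next with means over the 9 libraries of 1274, 1255 and 946 TPM, then the fast light chains Myl1 and Mylpf with 498 and 483 TPM. Each neighbouring pair in this order differed by less than the larger SD of the pair in aged and in young bone. The fast heavy chain Myh4 averaged 243 TPM, the non-muscle heavy chain Myh9 169 TPM, and the slow heavy chain Myh7 105 TPM. The embryonic and perinatal heavy chains Myh3 and Myh8 stood far down, at 1.14 and 0.173 TPM. As a percentage of all counts, the chains of striated muscle together made up 0.351, 0.867, 0.449, 0.760 and 0.331% in aged 1 to 5, against 0.341, 0.605, 0.544 and 0.611% in young 1 to 4, with the groups overlapping. Muscle chains were thus detected in every bone library, at both ages.

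**Figure D1:**
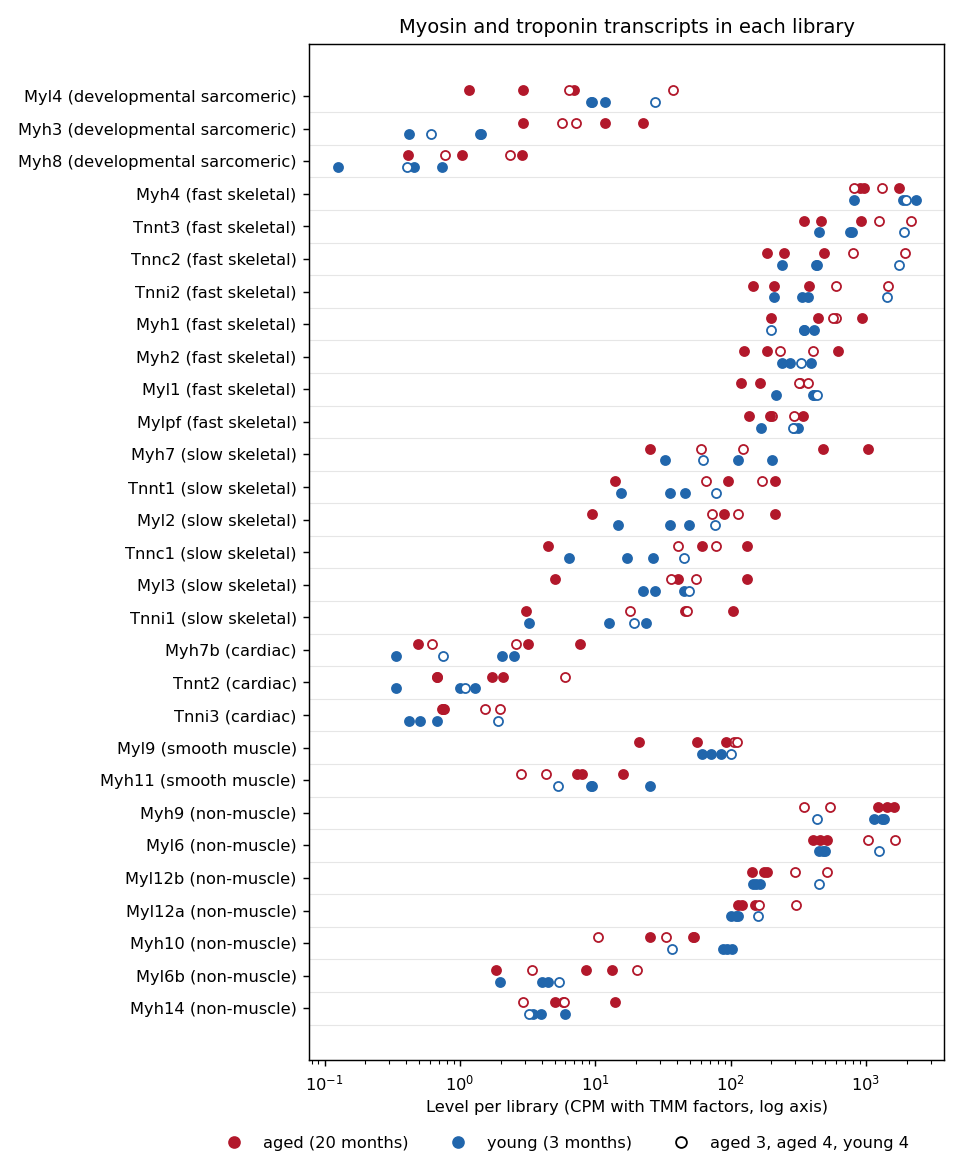
Level of each of the 29 chains with a mean of at least 1 CPM, 1 row per chain with its class in brackets; the horizontal log axis gives CPM scaled with TMM factors. Each point is 1 library, aged above young in a row, with aged 3, aged 4 and young 4 drawn open. Myh3 is the only row in which all 5 aged points lie to the right of all 4 young points.

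Library by library, 1 chain separated the age groups. Of the 32 tested, Myh3 alone had every aged library above every young library, which 1.67% of all genes tested did, and none had every aged library below every young library, which 2.76% did. With age as the only term, edgeR's quasi-likelihood test with Benjamini-Hochberg adjustment called 0 of the 32, and it called 0% of all genes, the smallest adjusted p being 0.255; limma-voom also called 0 of the 32 and 0 of all genes, and DESeq2 called 1 of the 32, Myh3, and 360 of all genes. At an unadjusted p under 0.05 the same test had 4 of the 32, against 8.79% of all genes: Myh3, Myh8 and Myh6 were higher in aged bone, against 4.15% of all genes, and Myh10 was lower, against 4.64%. With a term for the library set (aged 3, aged 4 and young 4 against the rest), it called 1 of the 32, against 1.92% of all genes: Myh3 was higher, against 0.615% of all genes, and 0 of the 32 were lower, against 1.31%.

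The classes differed in where their log2 fold changes (aged over young) lay. Of the 32, 23 (71.9%) were above 0, against 53.5% of all genes, and their median was 0.46, against 0.029 over all genes. The median was 1.77 for the 3 developmental chains, 1.38 for the 6 slow chains, 1.14 for the 4 tested cardiac chains, 0.27 for the 7 non-muscle chains, 0.028 for the 9 fast chains and -0.36 for the 2 smooth muscle chains. With the library set term the medians were 1.76, 1.41, 1.09, 0.12, -0.21 and -0.36 in the same order. When aged 5 alone was set against young 1 to 3, the libraries that share low Xist and the lower ribosomal protein share, the slow median was -2.0, the developmental median -0.079, the cardiac median -0.027, the fast median -0.58 and the non-muscle median 0.10, given without a test.

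**Figure D2:**
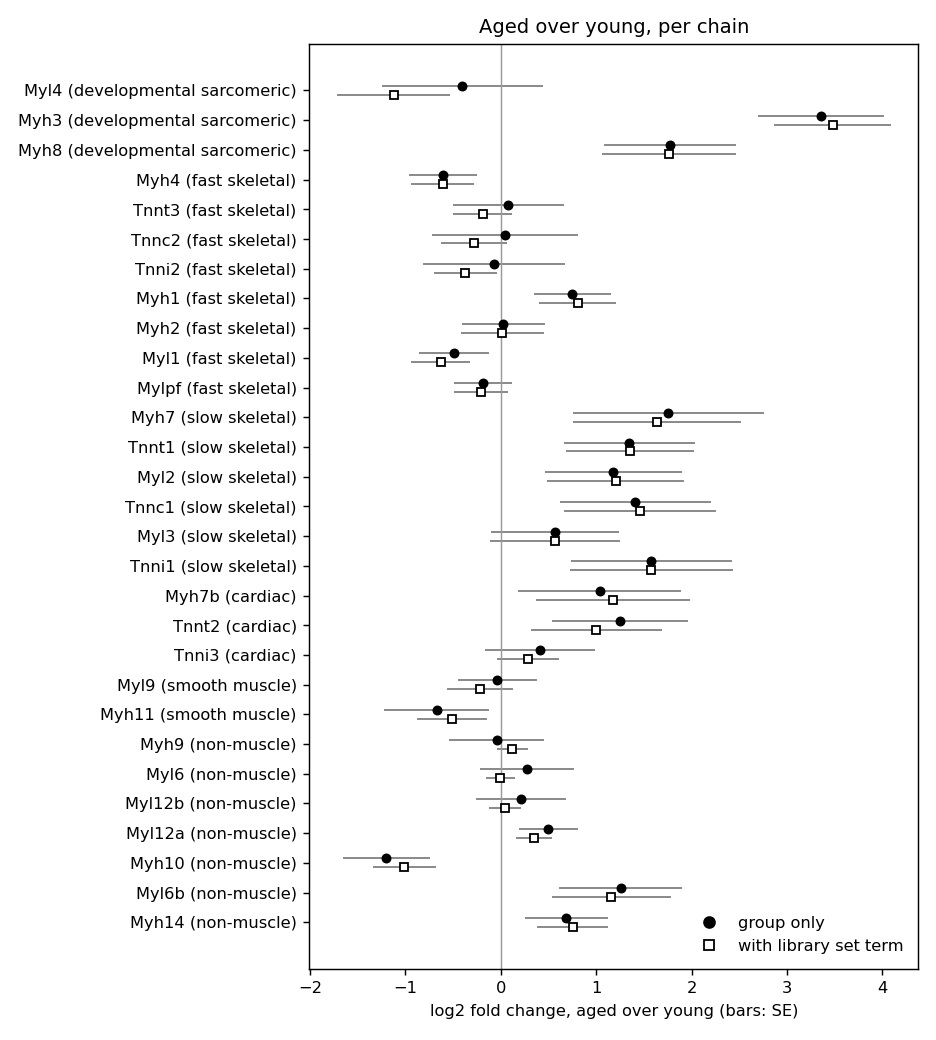
Log2 fold change, aged over young, of the 29 chains with a mean of at least 1 CPM (horizontal axis; bars show the SE). Filled circles are the fit with age alone and open squares the fit that adds the library set; Myh3 lies farthest to the right at 3.36 and 3.48, and the 6 slow chains all lie above 0.

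The embryonic myosin heavy chain Myh3 (ENSMUSG00000020908), which fibres use while they form before birth and again while they regenerate, was the chain with the widest difference. Its level was 11.7, 22.5, 7.17, 5.66 and 2.94 CPM in aged 1 to 5, against 1.41, 1.42, 0.420 and 0.611 CPM in young 1 to 4. Every aged library lay above every young one, and the aged libraries themselves spread widely, from aged 2 at the top to aged 5 at the bottom. These levels rest on 272, 506, 117, 109 and 78 estimated counts in aged 1 to 5, against 37, 31, 10 and 9 in young 1 to 4.

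The means of Myh3 were 10.001 ± 7.68 CPM in aged bone and 0.964 ± 0.524 CPM in young bone (SD, n = 5 and 4). The log2 fold change was 3.36 (SE 0.66, edgeR adjusted p = 0.255) with age alone, and 3.48 (SE 0.61, edgeR adjusted p = 0.0405) with the library set term. Of the 9 fits that kept that term and left out 1 library, 2 called it, those without aged 3 and without aged 5, and the edgeR adjusted p ran from 0.0119 to 0.176; the call was lost without any other library. Within the 6 libraries of lower ribosomal protein share the log2 fold change was 3.53 (SE 0.81, edgeR adjusted p = 0.0755), and within aged 3, aged 4 and young 4 it was 3.44 (SE 1.02), given without a test. Aged 5 against young 1 to 3 gave 1.43 (SE 0.59), also without a test, a smaller value between libraries alike in Xist and Ddx3y. In the authors' deposited table, Myh3 had a log2 fold change of 3.38 and an adjusted p of 5.49e-05, and it was the only 1 of the 34 with an adjusted p under 0.05 there. That table holds 300 genes with such a p, 0.527% of all those listed and 1.57% of the 19060 whose adjusted p is below 1.

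Measured against the other heavy chains of skeletal muscle, a ratio that library scaling does not touch, Myh3 was a small part of the summed counts of Myh1, Myh2, Myh3, Myh4, Myh7, Myh8 and Myh13. Its share was 0.683, 0.514, 0.405, 0.241 and 0.182% in aged 1 to 5, against 0.0876, 0.0456, 0.0158 and 0.0237% in young 1 to 4. The groups did not overlap in this share either. The nearest pair was aged 5 with 0.182% (95% Wilson interval 0.146% to 0.227%) and young 1 with 0.0876% (0.0636% to 0.121%), intervals that cover counting error only. Myh3 thus stayed under 1% of the skeletal heavy chain counts in all 9 libraries.

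Myh8, the perinatal heavy chain that follows Myh3 in developing fibres, was low throughout, at 1.04, 2.89, 2.33, 0.779 and 0.414 CPM in aged 1 to 5, against 0.456, 0.732, 0.126 and 0.407 CPM in young 1 to 4. Aged 2 and aged 3 were highest and the groups overlapped, since aged 5 sat among the young libraries. Its log2 fold change was 1.77 (SE 0.69, edgeR adjusted p = 0.480), and 1.11 at the lowest when 1 library was left out, without aged 2 and with the library set term. Myl4, the essential light chain of the embryonic and the atrial sarcomere, went another way, with 2.93, 6.98, 37.5, 6.34 and 1.17 CPM in aged 1 to 5, against 9.47, 11.7, 9.28 and 27.5 CPM in young 1 to 4. Aged 3 and young 4 stood highest in their groups. The log2 fold change of Myl4 was -0.40 (SE 0.84, edgeR adjusted p = 1.00), with -1.73 without aged 3, 0.10 without young 4 and -1.12 with the library set term. The hemoglobin share of all counts was also highest in those libraries, at 0.697, 2.23, 16.1, 3.98 and 3.75% in aged 1 to 5, against 6.98, 9.15, 7.65 and 21.8% in young 1 to 4. Of 16 erythroid genes listed, 15 were tested, and all 15 were below 0 with a median log2 fold change of -1.25. With age alone edgeR called 0 of them, and 11 had an unadjusted p under 0.05, against 8.79% of all genes. With the library set term 1, the transferrin receptor Tfrc, was called lower, against 1.31% of all genes. Their part in the Myl4 values was not tested.

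Genes that mark muscle stem cells and regenerating fibres were mostly near the floor. Of 12 listed, 6 were tested, with 5 log2 fold changes above 0 and 1 below, and 0 were called. In edgeR's fit with age alone, 2 of the 6 had an unadjusted p under 0.05, against 8.79% of all genes. The median log2 fold change of those 6 was 0.85, against 0.029 over all genes. Those with the highest means were the adhesion molecule Ncam1, the muscle transcription factor Myf6, the muscle cadherin Cdh15 and Chrna1, the alpha subunit of the acetylcholine receptor of muscle. Their log2 fold changes were 0.058, 1.14, -0.35 and 2.53 in that order, and that of the muscle factor Myod1 was 0.56. Ncam1, with a mean of 32.5 CPM, was far the most abundant and differed little between the ages. Chrna1 had 2.42, 2.76, 3.00, 6.39 and 0.377 CPM in aged 1 to 5, against 0.532, 0.412, 0.252 and 0.883 CPM in young 1 to 4, with aged 1 to 4 above all other libraries and aged 5 among the young ones. Myog, the transcription factor that starts fibre differentiation, was singled out after its values were seen: it had 0.776, 1.47, 2.02, 9.19 and 0.226 CPM in aged 1 to 5, against 0.304, 0, 0.0840 and 0 CPM in young 1 to 4, highest in aged 4 rather than in aged 2, where Myh3 peaked. The stem cell factors Pax7 and Myf5 were at or below 0.400 and 0.137 CPM in all libraries and were not tested. The part of these cells in the Myh3 values was not tested.

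The skeletal heavy chains Myh3, Myh2, Myh1, Myh4, Myh8 and Myh13 lie in that order along chromosome 11, while Myh7 and Myh6 are neighbours on chromosome 14. The 250 bases before the annotated start are shown for Myh3, Myh8 and Myh4, which lie in 1 cluster and have unlike values, and for Myh7, the heavy chain among the slow chains (RefSeq, build GRCm38.p6, 5′ to 3′ on the gene's strand; Myh7 has 2 windows in the table, of which the first is shown). Capitals mark every CANNTG, the E-box core read by muscle and other helix-loop-helix factors, and every TATAAA on either strand, which appears as TTTATA on the other strand.
Myh3, chr11:67078050-67078299, plus strand: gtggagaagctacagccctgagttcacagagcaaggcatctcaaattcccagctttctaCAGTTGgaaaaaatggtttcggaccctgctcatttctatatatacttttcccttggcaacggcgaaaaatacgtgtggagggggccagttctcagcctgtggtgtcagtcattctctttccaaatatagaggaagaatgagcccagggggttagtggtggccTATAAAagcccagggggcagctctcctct
Myh8, chr11:67276874-67277123, plus strand: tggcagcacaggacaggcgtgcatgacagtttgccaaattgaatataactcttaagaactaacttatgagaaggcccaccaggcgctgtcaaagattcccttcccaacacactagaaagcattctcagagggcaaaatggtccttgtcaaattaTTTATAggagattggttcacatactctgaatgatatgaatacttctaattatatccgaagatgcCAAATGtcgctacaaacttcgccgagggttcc
Myh4, chr11:67237562-67237811, plus strand: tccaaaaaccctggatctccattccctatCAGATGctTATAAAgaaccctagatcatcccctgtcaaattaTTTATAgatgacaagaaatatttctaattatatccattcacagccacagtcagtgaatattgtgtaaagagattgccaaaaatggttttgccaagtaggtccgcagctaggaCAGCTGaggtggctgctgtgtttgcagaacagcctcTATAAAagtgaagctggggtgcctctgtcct
Myh7, chr14:54994627-54994876, minus strand: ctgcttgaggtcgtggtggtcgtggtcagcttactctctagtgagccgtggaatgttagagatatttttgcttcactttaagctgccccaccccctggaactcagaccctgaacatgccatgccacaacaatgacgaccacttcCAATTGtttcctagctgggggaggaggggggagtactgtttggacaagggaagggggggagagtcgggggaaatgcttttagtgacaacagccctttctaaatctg

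The Myh3 window has TATAAA at position -29 and the Myh4 window at position -31, counted back from the start, and both have CANNTG. The Myh8 window has TTTATA only, and the Myh7 window has neither strand of TATAAA. Over the same 250 bases, CANNTG was found in 66.2% of 32851 windows of all genes and in 22 of 25 windows of striated muscle chains, and TATAAA on either strand in 12.4% of all windows and 7 of these 25. The MEF2 motif, searched on both strands by its consensus and overlapping TTTATA where it occurred, was in 2.92% of all windows and 3 of the 25, those of Myh1, Myh4 and Myh8. Of the 34 chains, 31 had a window; a match of letters is a description and says nothing about binding.

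Fast skeletal chains, which build the fibres of quick and strong contraction, were abundant and showed no shift with age that all of them shared. Of 9, 5 had a log2 fold change above 0 and 4 below, none was called, and the fast median of the fit with age alone was -0.52 without aged 4 and 0.57 without young 4. Myh4, the heavy chain of the fastest fibres (type IIB), had 906, 1758, 808, 1309 and 960.1 CPM in aged 1 to 5, against 808, 2322, 1884 and 1988 CPM in young 1 to 4. Young 2, 3 and 4 lay above all aged libraries and young 1 level with the lowest of them. Its log2 fold change was -0.61 (SE 0.36, edgeR adjusted p = 0.761). As a share of the skeletal heavy chain counts Myh4 was 52.7, 40.1, 45.7, 55.7 and 59.4% in aged 1 to 5, against 50.3, 74.6, 71.0 and 77.0% in young 1 to 4. Myh4 was the most counted skeletal heavy chain in all 9 libraries.

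Myh1, the heavy chain of type IIX fibres, averaged 547 ± 266 CPM in aged bone and 326 ± 89.4 CPM in young bone (SD, n = 5 and 4), with a log2 fold change of 0.75 (SE 0.40, edgeR adjusted p = 0.705). Myh2, the type IIA heavy chain of fast fibres that resist fatigue, averaged 314 ± 203 CPM in aged bone and 308 ± 66.7 CPM in young bone (SD, n = 5 and 4), with a log2 fold change of 0.028 (SE 0.43, edgeR adjusted p = 1.00). Both overlapped between the groups. How reads were shared between these near-identical chains is not given in the sources used here: of the 50-base stretches of their transcripts in GENCODE M21, 25.4% of Myh1, 26.9% of Myh2, 18.9% of Myh4 and 16.7% of Myh8 also occur in another of the 34 genes, but 4.76% of Myh3. Their split is uncertain to that extent.

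On the CPM scale, the fast troponins were highest in the 3 libraries of the ribosomal protein set, at both ages. Tnnc2, the calcium sensor of fast fibres, had 187, 492.7, 799.7, 1950.0 and 246 CPM in aged 1 to 5, against 239, 431, 424 and 1761 CPM in young 1 to 4. Tnni2, the fast inhibitory subunit, had 147, 378, 602, 1459 and 209 CPM in aged 1 to 5, against 208, 335, 374 and 1437 CPM in young 1 to 4. Tnnt3, the fast tropomyosin-binding subunit, had 347, 920.5, 1256, 2158 and 461 CPM in aged 1 to 5, against 447, 762, 784 and 1898 CPM in young 1 to 4. In all 3 genes, aged 3, aged 4 and young 4 were above each of the other 6 libraries in CPM. In TPM as deposited, aged 4 stayed highest, but aged 2 lay above aged 3 in each gene. The values in aged 2 and aged 3 were 1292 and 1019 TPM for Tnnc2, 930 and 713 TPM for Tnni2, and 1601 and 1037 TPM for Tnnt3. The log2 fold change was 0.042 (SE 0.77, edgeR adjusted p = 1.00) for Tnnc2, -0.074 (SE 0.74, edgeR adjusted p = 1.00) for Tnni2 and 0.080 (SE 0.58, edgeR adjusted p = 1.00) for Tnnt3. Without aged 4 that of Tnnc2 was -0.73, and without young 4 that of Tnni2 was 0.87, so single libraries of the set turn its sign.

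The fast light chains did not share the CPM order of the fast troponins. Mylpf, the regulatory light chain of fast fibres, averaged 234 ± 82.2 CPM in aged bone and 266 ± 67.1 CPM in young bone (SD, n = 5 and 4), with a log2 fold change of -0.18 (SE 0.30, edgeR adjusted p = 1.00). Myl1, their essential light chain, averaged 261 ± 111 CPM in aged bone and 368 ± 102 CPM in young bone (SD, n = 5 and 4), with a log2 fold change of -0.49 (SE 0.37, edgeR adjusted p = 0.885). Neither had aged 3, aged 4 and young 4 all above the other 6 libraries. Myh13, the chain of fast eye and throat muscles, was at 1.47 CPM or less in every library.

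Set against the summed TPM of Myh1, Myh2 and Myh4, Tnnc2 was at a ratio of 1.98, 1.95, 6.29, 10.8 and 2.01 in aged 1 to 5, against 2.15, 1.97, 2.09 and 8.88 in young 1 to 4. The 6 libraries of lower ribosomal protein share thus held a nearly constant ratio at both ages, and the other 3 exceeded it. The same ratio for Mylpf was 1.27, 1.17, 1.43, 1.43 and 1.40 in aged 1 to 5, against 1.30, 1.25, 1.27 and 1.36 in young 1 to 4, level across all 9 libraries. Myl1 had 0.957, 0.972, 2.01, 1.57 and 1.04 in aged 1 to 5, against 1.44, 1.46, 1.53 and 1.67 in young 1 to 4. In this ratio of Myl1, aged 3, aged 4 and young 4 exceeded the other 6 libraries, by less than in that of Tnnc2. Within the thin filament, Tnni2 over Tnnc2 stayed between 0.6998 and 0.798 in aged bone and between 0.730 and 0.827 in young bone. The ratio between these troponin subunits thus varied less over the libraries than the ratio of troponin to heavy chain.

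In the same 3 libraries, short chains as a group stood higher against the other 6 than long chains did, with overlapping ranges. The difference in mean log2 CPM, aged 3, aged 4 and young 4 minus the other 6, was above 0 in 17 of 17 chains shorter than 2000 bases, with a median of 1.07, and in 3 of 11 chains longer than 4000 bases, with a median of -0.56. Over all genes tested the medians were 1.02 under 1 kb, 0.50 from 1 to 2 kb, -0.10 from 2 to 4 kb and -0.58 over 4 kb. The short chains ranged from 0.18 for Mylpf to 2.15 for Tnnc2, and the long ones from -1.62 for Myh9 to 0.45 for Myh8. The fast heavy chains Myh4, Myh1 and Myh2 lay near 0, between -0.048 and 0.23. Light chains and troponins are short and heavy chains long, and the part of length in these values was not tested.

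**Figure D3:**
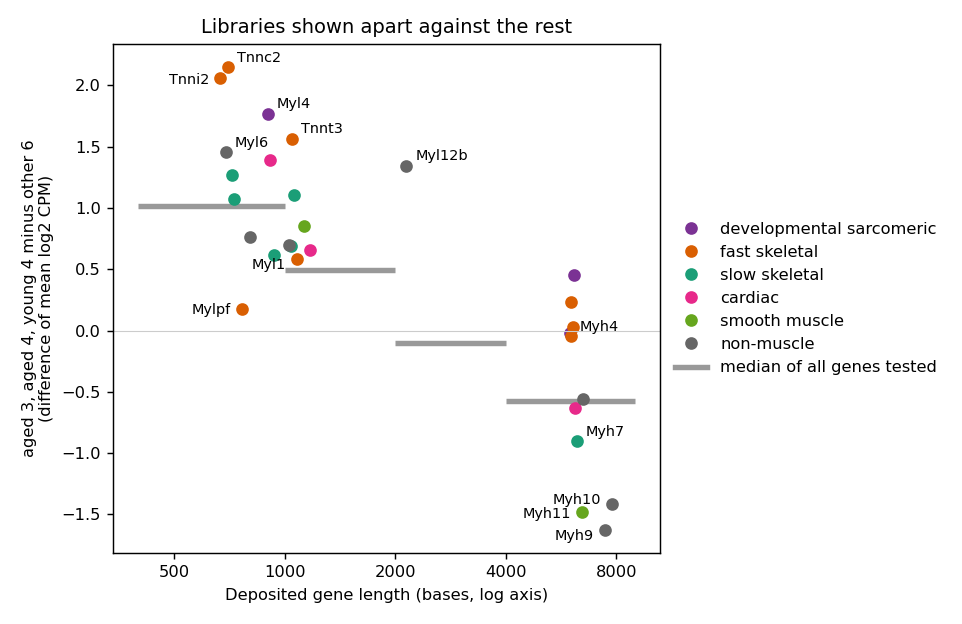
Difference in mean log2 CPM between aged 3, aged 4 and young 4 and the other 6 libraries (vertical axis) against the gene length in the deposited table (horizontal log axis), 1 point per chain with a mean of at least 1 CPM, coloured by class. Grey bars are the medians of all genes tested in 4 length classes, 1.02, 0.50, -0.10 and -0.58 from short to long; Tnnc2 lies highest at 2.15 and Myh9 lowest at -1.62.

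Slow skeletal chains, which postural fibres share with the heart, shared their highest library. All 6 had a log2 fold change above 0, from 0.57 for Myl3 to 1.76 for Myh7, and 0 were called. All 6 had their highest level in aged 2 and their lowest in aged 5, both aged libraries, so the groups overlapped in each. Aged 5 against young 1 to 3 turned all 6 below 0, from -1.21 (SE 0.52) for Tnnt1 to -2.66 (SE 0.43) for Myl3, given without a test. Between these ends the order of the libraries varied by chain: Myh7 was higher in aged 1 than in aged 3, while Tnnt1, Myl2 and Tnnc1 were higher in aged 3.

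Myh7, the heavy chain of slow fibres, had 477, 1042, 124, 60.8 and 25.5 CPM in aged 1 to 5, against 113, 201, 32.5 and 62.6 CPM in young 1 to 4. Aged 1 and aged 2 stood above every young library, aged 3 and aged 4 among them, and aged 5 below them. Its log2 fold change was 1.76 (SE 1.00, edgeR adjusted p = 0.740), and 0.75 without aged 2. Tnnt1, the slow tropomyosin-binding subunit, had 94.7, 212, 169, 65.3 and 14.0 CPM in aged 1 to 5, against 35.7, 46.0, 15.5 and 77.4 CPM in young 1 to 4. Myl2, the slow and ventricular regulatory light chain, had 89.2, 212, 114, 72.5 and 9.45 CPM in aged 1 to 5, against 35.5, 49.1, 14.7 and 76.7 CPM in young 1 to 4. In both, aged 2 was highest and aged 5 lowest, and the groups overlapped. Tnnc1, the calcium sensor of slow fibres and heart, had 61.1, 133, 78.4, 40.7 and 4.44 CPM in aged 1 to 5, against 17.1, 26.7, 6.34 and 45.5 CPM in young 1 to 4, with the same highest and lowest libraries.

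The log2 fold change was 1.35 (SE 0.69, edgeR adjusted p = 0.671) for Tnnt1, 1.18 (SE 0.72, edgeR adjusted p = 0.782) for Myl2 and 1.41 (SE 0.80, edgeR adjusted p = 0.736) for Tnnc1. Myl3, the slow and ventricular essential light chain, averaged 53.6 ± 47.0 CPM in aged bone and 36.2 ± 13.4 CPM in young bone (SD, n = 5 and 4), with a log2 fold change of 0.57 (SE 0.68, edgeR adjusted p = 1.00). Tnni1, the slow inhibitory subunit, averaged 43.8 ± 38.9 CPM in aged bone and 14.7 ± 8.85 CPM in young bone (SD, n = 5 and 4), with a log2 fold change of 1.58 (SE 0.84, edgeR adjusted p = 0.701). With the library set term, the slow median was 0.73 without aged 2.

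The slow share of each filament part showed the same libraries. Of the skeletal heavy chain counts, Myh7 made up 27.8, 23.8, 6.998, 2.58 and 1.58% in aged 1 to 5, against 7.06, 6.47, 1.23 and 2.42% in young 1 to 4. In TPM as deposited, its share of the sum of Myh7, Myh1, Myh2 and Myh4 was 45.4, 39.6, 22.1, 8.22 and 3.60% in aged 1 to 5, against 14.3, 12.3, 2.77 and 7.60% in young 1 to 4. Aged 1 and aged 2 were highest on both scales, and Myh7 came near the summed fast chains there on the TPM scale only. The deposited lengths are close, 6230 bases for Myh7 and 6016 to 6081 bases for the fast chains. Why the TPM shares exceed the count shares is not given in the sources used here, so the near parity in TPM is uncertain.

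In the thin filament, the slow share of troponin C (Tnnc1 of Tnnc1 plus Tnnc2 TPM) was 23.9, 20.6, 8.56, 1.99 and 1.70% in aged 1 to 5, against 6.40, 5.67, 1.42 and 2.42% in young 1 to 4. The slow share of troponin I (Tnni1 of Tnni1 plus Tnni2 TPM) ran from 0.689% to 15.3% in aged bone and from 0.480% to 3.73% in young bone. The slow share of troponin T (Tnnt1 of Tnnt1 plus Tnnt3 TPM) ran from 3.41% to 19.9% in aged bone and from 2.22% to 7.09% in young bone. Aged 1 and aged 2 were highest for heavy chain, troponin C, troponin I and troponin T alike.

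**Figure D4:**
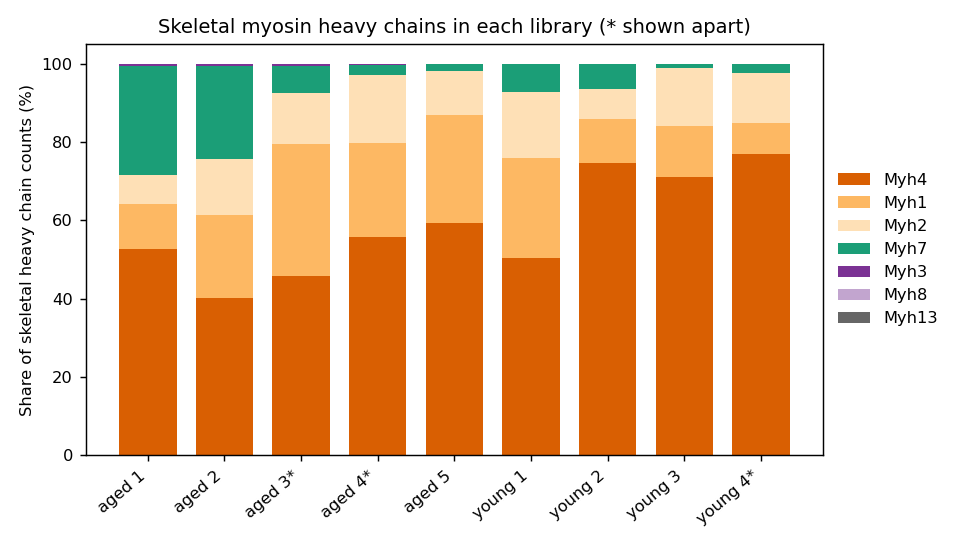
Share of each heavy chain in the summed counts of the 7 skeletal heavy chains (vertical axis, percent), 1 bar per library, aged to the left of young; asterisks mark aged 3, aged 4 and young 4. Myh4 is the largest part of each bar, and the Myh7 part is widest in aged 1 (27.8%) and aged 2 (23.8%).

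**Figure D5:**
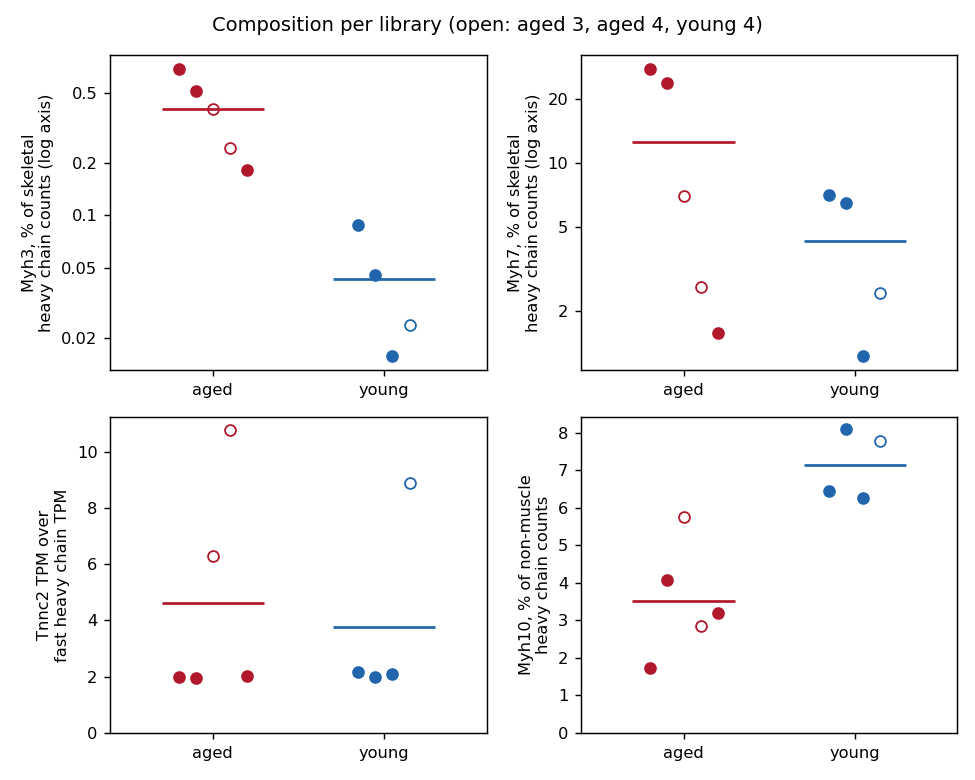
Per-library composition in 4 panels, aged left of young: Myh3 and Myh7 as percent of skeletal heavy chain counts (log axes), Tnnc2 TPM over the summed TPM of Myh1, Myh2 and Myh4, and Myh10 as percent of non-muscle heavy chain counts. Points are libraries (aged 3, aged 4 and young 4 open) and lines are group means; the groups are apart for Myh3 and Myh10, and the open points are apart for Tnnc2.

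Chains proper to the heart were at the lower limit. Of 5, 4 were tested, all with a log2 fold change above 0, from 0.41 for Tnni3 to 2.06 for Myh6, and 0 were called. Myh7b, a slow-type heavy chain of heart and some muscles, averaged 2.91 ± 2.92 CPM in aged bone and 1.41 ± 1.04 CPM in young bone. Tnnt2, cardiac troponin T and also a form of immature skeletal fibres, averaged 2.23 ± 2.20 CPM in aged bone and 0.930 ± 0.414 CPM in young bone, and Tnni3, cardiac troponin I, 1.15 ± 0.572 CPM in aged bone and 0.874 ± 0.693 CPM in young bone (SD, n = 5 and 4 for each). Tnnt2 was highest in aged 3, at 6.01 CPM. Myh6, the atrial heavy chain, averaged less than 1 CPM over all libraries, with a log2 fold change of 2.06 (SE 0.84, edgeR adjusted p = 0.503), and shares 21.9% of its 50-base stretches with Myh7, of which 21.2% are in Myh6. The atrial light chain Myl7 had no count in any library, and of 7 other heart genes listed 2 were tested, 1 above and 1 below 0, with 0 called by edgeR and 0 at an unadjusted p under 0.05. The 2 tested were cardiac actin Actc1, with a mean of 3.34 CPM and a log2 fold change of -0.93, and Mybpc3, with 0.648 CPM and 0.27. Actc1 was highest in young 4, at 9.30 CPM. From the same list, Nkx2-5 and Nppa were at 0 and at most 0.104 CPM.

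The smooth muscle pair overlapped between the ages. Myl9, the regulatory light chain of smooth muscle and platelets, had 21.0, 56.3, 106, 112 and 92.2 CPM in aged 1 to 5, against 71.9, 61.8, 84.3 and 99.9 CPM in young 1 to 4. In CPM, aged 3, aged 4 and young 4 were highest and the groups overlapped. In TPM as deposited, Myl9 was highest in aged 5, at 136 TPM, while young 4 had 56.3 TPM. Myh11, the smooth muscle heavy chain, had 7.38, 16.1, 4.29, 2.80 and 8.02 CPM in aged 1 to 5, against 9.51, 25.2, 9.28 and 5.30 CPM in young 1 to 4. Its lowest libraries were aged 3, aged 4 and young 4. Log2 fold changes were -0.037 (SE 0.41, edgeR adjusted p = 1.00) for Myl9 and -0.67 (SE 0.55, edgeR adjusted p = 0.931) for Myh11. Without young 2 that of Myh11 was -0.047 and the median of the pair -0.092, and without aged 2 that of Myh11 was -1.13. Of 14 smooth muscle and pericyte genes listed, 12 were tested, 3 above 0 and 9 below, none called, with a median of -0.26; their 4 highest were desmin (Des), which skeletal fibres also make, Synpo2, Rgs5 and Smtn.

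Non-muscle chains, the contractile set of blood and bone cells, overlapped between the groups in all 7 genes. Myh9, non-muscle heavy chain IIA, had 1439, 1221, 542, 349.8 and 1610.1 CPM in aged 1 to 5, against 1353, 1152, 1319.9 and 434 CPM in young 1 to 4. Myl6, the essential light chain that pairs with it, had 461, 408, 1035, 1623 and 514 CPM in aged 1 to 5, against 481, 451, 497 and 1246 CPM in young 1 to 4. On the CPM scale, aged 3, aged 4 and young 4 were the lowest for Myh9 and the highest for Myl6, at both ages. In TPM as deposited they were again the lowest for Myh9. Myl6 was highest in aged 4 in TPM too, but aged 1, at 1580 TPM, exceeded aged 3 and young 4, at 1419 and 1440 TPM. The ratio of Myl6 TPM to Myh9 TPM was 32.9, 77.9 and 48.0 in aged 3, aged 4 and young 4, and ran from 5.19 to 6.29 in the other 6 libraries. Log2 fold changes were -0.045 (SE 0.50, edgeR adjusted p = 1.00) for Myh9 and 0.27 (SE 0.50, edgeR adjusted p = 1.00) for Myl6.

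The regulatory light chain Myl12b had 186, 144, 300.03, 512 and 177 CPM in aged 1 to 5, against 155, 146, 164 and 446 CPM in young 1 to 4. Its near copy Myl12a had 122, 150.3, 161, 306 and 114 CPM in aged 1 to 5, against 109, 100.1, 114 and 160.3 CPM in young 1 to 4. In CPM the 3 libraries were again highest. In TPM as deposited, Myl12b was lowest in aged 3, at 242 TPM. Myl12a was highest in aged 4, at 315 TPM, but lowest in young 4, at 114 TPM. Their log2 fold changes were 0.21 (SE 0.47, edgeR adjusted p = 1.00) and 0.50 (SE 0.31, edgeR adjusted p = 0.804). Of the 50-base stretches, 20.7% of Myl12b and 18.8% of Myl12a occur in the other gene, so their split is uncertain. Myl6b, an essential light chain of slow muscle and non-muscle cells, averaged 9.49 ± 7.57 CPM in aged bone and 3.97 ± 1.46 CPM in young bone with a log2 fold change of 1.26 (SE 0.64, edgeR adjusted p = 0.671). Myh14, non-muscle heavy chain IIC, averaged 6.74 ± 4.26 CPM in aged bone and 4.18 ± 1.25 CPM in young bone with a log2 fold change of 0.69 (SE 0.43, edgeR adjusted p = 0.811) (SD, n = 5 and 4 for each).

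Myh10 (ENSMUSG00000020900), non-muscle heavy chain IIB, was the chain with the lowest log2 fold change. It had 25.3, 52.5, 33.2, 10.4 and 53.2 CPM in aged 1 to 5, against 93.6, 102, 88.3 and 36.9 CPM in young 1 to 4. Young 1 to 3 lay above all aged libraries and young 4 within their range. The means were 34.9 ± 18.3 CPM in aged bone and 80.2 ± 29.4 CPM in young bone (SD, n = 5 and 4), and the log2 fold change was -1.20 (SE 0.46, edgeR adjusted p = 0.466). With the library set term it was -1.01 (SE 0.33, edgeR adjusted p = 0.132), and with that term and without aged 3 it was -1.28 (SE 0.24, edgeR adjusted p = 0.0211), the only call of Myh10 in the alternatives run. As a share of non-muscle heavy chain counts (Myh9, Myh10 and Myh14) Myh10 was 1.72, 4.08, 5.75, 2.84 and 3.19% in aged 1 to 5, against 6.46, 8.09, 6.26 and 7.78% in young 1 to 4.

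The groups did not overlap in this share, which was looked at after the values of its chains were known. The nearest pair was aged 3 with 5.75% (95% Wilson interval 5.29% to 6.23%) and young 3 with 6.26% (6.00% to 6.52%), whose intervals overlap. Aged 5, with the sex-linked transcripts of the young libraries, had 3.19%. The 12 genes of osteoblasts, cells in which collagen Col1a1 and Col1a2 are abundant, all had log2 fold changes below 0 with a median of -0.75. With age alone edgeR called 0 of these genes, and 6 had an unadjusted p under 0.05, against 8.79% of all genes. With the library set term 1, Mepe, was called lower, against 1.31% of all genes. Summed, the 12 had 873, 2765, 1873, 741 and 2734 CPM in aged 1 to 5, against 6441, 6485, 2499.9 and 4015 CPM in young 1 to 4. The 12 B cell progenitor genes also lay below 0 throughout, with a median of -0.79 and 0 called, and the 10 megakaryocyte and platelet genes had a median of 0.026. In edgeR's fit with age alone, 1 of the B cell progenitor genes and 0 of the megakaryocyte and platelet genes had an unadjusted p under 0.05. The part of these cells in the Myh10 and Myh9 values was not tested.

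The last 2 of the 34 are Myl10, a regulatory light chain with a mean under 1 CPM and a log2 fold change of 0.073, and Myh15, which had at most 0.400 CPM and was not tested.

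Other parts of the skeletal fibre overlapped between the groups. Of 40 genes of the fibre, all were tested, with 28 above 0 and 12 below, against 53.5% of all genes above 0. The median log2 fold change was 0.35, against 0.029 over all genes. With either edgeR fit 0 of the 40 were called, against 0% of all genes with age alone and 1.92% with the library set term. With age alone 4 of the 40 had an unadjusted p under 0.05 in edgeR, against 8.79% of all genes. Their most abundant were skeletal actin Acta1, the calcium pump Atp2a1, tropomyosin Tpm1 and creatine kinase Ckm. Acta1 had 1037, 2538, 1265, 1972 and 786 CPM in aged 1 to 5, against 899, 1611, 1274 and 1817 CPM in young 1 to 4, and summed, the 40 had 7011, 15522, 9521, 15102 and 6154 CPM in aged 1 to 5, against 6188, 9853, 8716 and 13270.0 CPM in young 1 to 4. Aged 2 and aged 4 were highest, then young 4, and the groups overlapped. Sln, a small inhibitor of the calcium pump, was singled out after its values were seen, with 8.50, 15.4, 9.99, 4.10 and 1.36 CPM in aged 1 to 5, against 1.29, 2.11, 0.546 and 2.92 CPM in young 1 to 4 and a log2 fold change of 2.21.

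The 18 genes listed for myosin regulation and assembly, which hold kinases, phosphatase subunits, chaperones, ubiquitin ligases and methyltransferases, had a median log2 fold change of -0.030, with 8 above 0, 10 below and 0 called. The most abundant were the chaperone Hsp90aa1, the phosphatase catalytic subunit Ppp1cb, its myosin-targeting subunit Ppp1r12a and the kinase Rock1. Hsp90aa1 had 505, 382, 664, 1068 and 428 CPM in aged 1 to 5, against 462, 472, 555 and 1040.5 CPM in young 1 to 4, highest in aged 4, young 4 and aged 3.

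Among 14801 genes outside the 34 with a mean of at least 1 CPM, the 10 whose log2 CPM ran most like the mean of the fast chains over the 9 libraries were Bves, Ak1, Eno3, Mkx, Magix, Pfkm, B330016D10Rik, Tbx15, Havcr1 and Tbx18, with Pearson r from 0.964 to 0.944. Eno3 (muscle enolase), Pfkm (muscle phosphofructokinase) and Ak1 (adenylate kinase) are enzymes of muscle energy supply and averaged 213, 197 and 57.8 CPM. The points share depth, scaling and the library set, and the 10 were picked for their r, so these values describe the libraries only.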

How the data were processed

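One deposited table held 9 libraries of mouse bone. Its expected counts, as deposited by the authors, were estimates without library scaling; whole numbers from rounding entered the tests. TPM values and gene lengths were also taken as deposited by the authors. TPM served to compare levels between genes, to form ratios, and to show where the order of libraries differed from that in CPM. The log2 fold changes and p-values of the authors' deposited table come from a comparison whose settings are not given in the sources used here. Bowtie 0.12.2 and mm8 appear in the submitters' processing notes without a role; the quantifier and annotation are not given in the sources used here. Of 56980 gene IDs, 52073 are in GENCODE M21, which served to count 50-base stretches shared between the 34 genes.

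The test was edgeR's (4.0.16, R 4.3.3) two-sided quasi-likelihood F test, on group alone, after filterByExpr, with TMM factors (filter minimum count 10, total 15); p-values were adjusted by Benjamini-Hochberg over 16576 genes with a threshold of 0.05. Levels are CPM with TMM factors, and ratios were formed from counts or TPM of single libraries. Library totals of 19804883 to 23548594 set the depth. No 2 libraries were alike within sampling noise: chi-square per gene was 11.6 for the closest pair (young 1 with young 3). The library set was named before the fits, from the ribosomal protein share of the counts, and no cutoff was computed. Scripts were tested on simulated data.

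The genes and lists were chosen with earlier results of these data known. Chains with a mean of at least 1 CPM are given with values, up to 4 per class library by library, with up to 4 genes of the highest mean for other lists and the 10 genes most alike to the fast chains. Alternatives were other scalings and filters, DESeq2 1.42.0, limma-voom (limma 3.58.1), robust dispersions, a replicate block, the library set, and each library left out; those that leave out a library with the set term, the 3-library values and aged 5 against young 1 to 3 were chosen after seeing the data. Promoter letters are from RefSeq.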

Additional observations from a re-analysis of the deposited data

Results flagged for a closer look

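In 10 of 58 groups of libraries checked, the highest or lowest library lay far from the rest of its age group by Dixon's criterion. The criterion flags about 1 group in 20 by chance where groups are independent and values normally distributed. Here the chains share the same libraries and CPM entered without logs, so the 10 cannot be set against that rate. In aged bone, Myl4 had 37.5 CPM in aged 3, against 1.17 to 6.98 CPM in the other aged libraries, and Tnnt2 had 6.01 CPM in aged 3, against 0.675 to 2.07 CPM. Myl12a had 306 CPM in aged 4, against 114 to 161 CPM in the other aged libraries, and Myh14 had 14.1 CPM in aged 2, against 2.94 to 5.87 CPM. In young bone, young 4 stood high for 5 chains. Myl4 had 27.5 CPM there, against 9.28 to 11.7 CPM in young 1 to 3. Tnnc2 had 1761 CPM, against 239 to 431 CPM, and Tnni2 had 1437 CPM, against 208 to 374 CPM. Myl6 had 1246 CPM, against 451 to 497 CPM, and Myl12b had 446 CPM, against 146 to 164 CPM. Myl1 had 216 CPM in young 1, against 406 to 434 CPM in young 2 to 4. Of these 10 cases, 8 fall in aged 3, aged 4 and young 4, which also had the higher share of ribosomal protein genes. The part of that share in these values was not tested.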

How the results depend on the processing

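With age as the only term, 0 genes and 0 of the 32 chains were called, also under RLE, upper quartile or total-count scaling, without hemoglobin genes, without a low-count filter, with a minimum mean of 1 CPM, with limma-voom and with robust dispersions. DESeq2 called 360 genes and 1 chain, the library set term 319 and 1, and the 6 libraries of lower ribosomal protein share 2 and 0. The replicate block called 13 genes and 1 chain, Myh3, with a log2 fold change of 3.58 (edgeR adjusted p = 0.0421). Same-numbered libraries deviated together for numbers 1, 2 and 4 (correlations 0.46, 0.55 and 0.74) but not for 3 (-0.39), where the library did not correlate best with its own number, so the number was not taken as a pairing. Leaving out 1 library gave 0 to 6 genes, the 6 without aged 5, and 0 chains. With the set term it gave 0 to 1633 genes, 1633 without aged 3, 712 without aged 5, 2 without young 4, 1 without aged 2 and 0 otherwise, and 0 to 2 chains. The Myh3 log2 fold change lay between 2.81 and 3.83 over 30 alternatives with a test, and that of Myh10 between -1.52 and -0.81. The sign turned for Tnnc2 without aged 4 (-0.73), for Tnni2 without young 4 (0.87), and, with the set term and without aged 2, for Tnnt3 (-0.51), Myh2 (-0.64) and Myl3 (-0.34); another 76 sign changes of single chains in fits with a test moved the value by less than 1 SE. With 1 library left out and age alone, the log2 fold change ran from -0.73 to 1.01 for Tnnc2 and from -0.82 to 0.87 for Tnni2, and the non-muscle median, 0.27, from 0.13 to 0.67; with the set term that median was 0.068 at the lowest (without aged 5) and 0.080 without young 2. Aged 5 against young 1 to 3 gave medians of -0.079 for developmental, -2.0 for slow, -0.027 for cardiac, 0.10 for non-muscle and -1.63 for Myl10. It turned the sign of 15 of 29 chains, in 13 to a value beyond its SE: Myh7 (-2.19), Tnnt1 (-1.21), Myl2 (-1.81), Tnnc1 (-1.92), Myl3 (-2.66), Tnni1 (-2.09), Myh7b (-1.74), Myl6b (-0.92), Myh2 (-0.72), Tnnc2 (-0.58), Tnnt3 (-0.53), Myl9 (0.33) and Myh9 (0.33). The values within aged 3, aged 4 and young 4 turned 8 signs, 0 beyond the SE. The causes were not tested. Chains near 1 CPM rest on few counts in a library, so differences in Myh8, the cardiac chains and young Myh3 were measured coarsely.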
